A study of Mus musculus with 8 samples.

Results

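Fibroblast growth factor 23 (Fgf23), its 4 signalling receptors (Fgfr1 to Fgfr4), its co-receptor alpha-klotho (Kl), 3 enzymes that decide whether the hormone is secreted whole or cut (Galnt3, Fam20c and Furin) and the bone-cell product sclerostin (Sost) were followed in mouse hearts, as 10 of the 22518 genes in the expression table. The set was chosen on its readout: Fgf23 was picked because it was higher in the knockout hearts, and the other 9 were picked for their roles beside it with earlier results of these data known. The values of Fgf23 are therefore given as a description, with no test. The 8 libraries were made from whole hearts of C57BL/6 mice aged 12 days (P12): 4 from animals with an endothelial knockout of PHD2 and PHD3, the oxygen-sensing prolyl hydroxylases that mark HIF alpha subunits for degradation, and 4 from their wild type littermates. The labels do not name the alleles or the Cre driver behind that deletion, and they do not say whether each library came from its own animal, so the p-values below measure only the spread between these samples.

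FGF23 is a circulating hormone made mainly by osteocytes, the cells embedded in bone, and it lowers blood phosphate by acting on the kidney through an FGF receptor held together with alpha-klotho. Whole FGF23 is the active hormone. GALNT3 places a sugar chain beside the cleavage site that protects it, FAM20C phosphorylates a neighbouring serine and so hinders that sugar chain, and furin, a protease of the secretory pathway, cuts the protein into fragments. In the heart, FGF23 has been studied for its action on cardiomyocytes through FGFR4 and the calcineurin and NFAT pathway, which can run without klotho.

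The stretch of the Fgf23 gene that encodes this cleavage site is shown because 3 of the genes described act on it. It lies in exon 3 of 3, on the plus strand of mm10 at chr6:127080224-127080283, within the coding sequence. Capitals mark the 12 bases that encode arginine, histidine, threonine and arginine, residues 176 to 179 of a protein of 251 residues.
Fgf23 cleavage site: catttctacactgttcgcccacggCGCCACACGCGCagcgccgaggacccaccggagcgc
GALNT3 acts on threonine 178, furin cuts after arginine 179, and FAM20C phosphorylates serine 180, the residue just after the cut. The cut leaves 179 residues before it, counting the signal peptide, and 72 residues after it. The mm10 sequence was read here, not the sequence of these libraries.

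Fgf23 itself lies at chr6:127072902-127081408. Its values are in FPKM (fragments scaled to transcript length and to sequencing depth), which were quantile normalised, so that every library holds nearly the same set of values and sequencing depth is unknown. In the wild type hearts, Fgf23 stood at 0.0193, 0, 0 and 0.0120 FPKM in replicates 1 to 4. The knockout hearts held 9.13, 23.1, 10.1 and 17.8 FPKM. The transcript was thus at or near 0 in every wild type library and between 9.13 and 23.1 FPKM in every knockout library, with no overlap and with a 2.53-fold spread among the knockout hearts. The group means were 0.00783 ± 0.00952 FPKM (SD, n = 4) and 15.0 ± 6.63 FPKM (SD, n = 4), and no fold is given because 2 wild type libraries were listed at 0.

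On the scale used for the tests, log2(FPKM + 1), Fgf23 differed by 3.90 ± 0.25 (SE). The genes tested were the 11390 whose mean over the 8 libraries reached 1 FPKM. Fgf23 passed that filter only through the knockout hearts and was itself given no test. Its difference ranked 1 among the 11390 genes, a description only, because Fgf23 was chosen for this rise. The mean level of Fgf23 stood at the percentile 26.3 of all 22518 genes in wild type hearts and at the percentile 83.8 in knockout hearts. Among the 18 secreted FGF ligands of the table, Fgf23 ranked 12 by mean level in wild type hearts and 2 in knockout hearts, after Fgf1. In tissue-level RNA, fewer cells of a type and less RNA per cell cannot be told apart, here and in every result below.

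**Figure D1:**
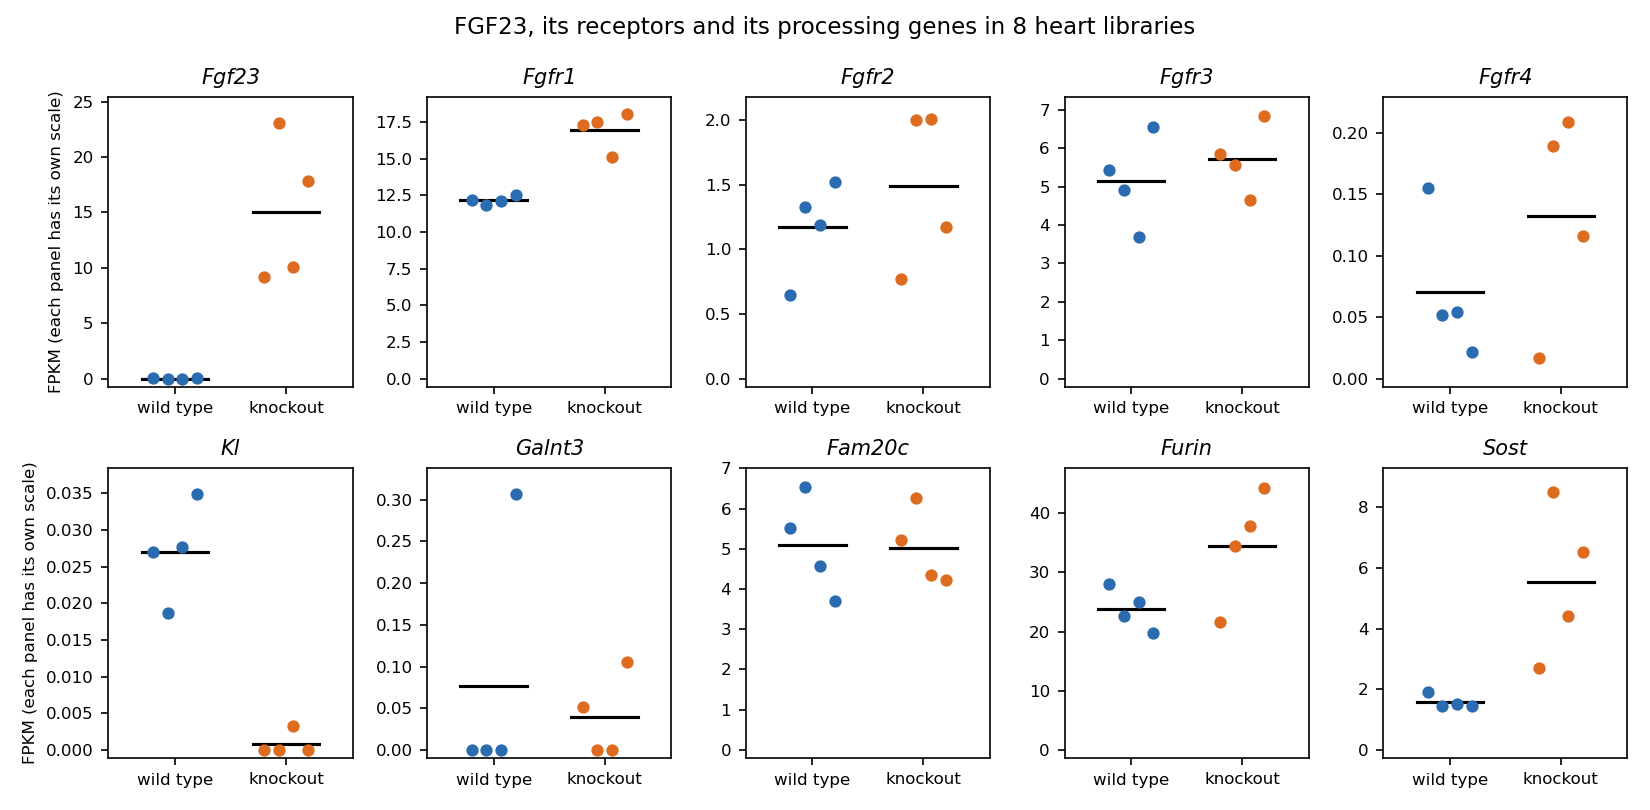
FPKM of the 10 genes in each library, 1 panel per gene with its own linear axis from 0, with wild type in blue, knockout in orange and a line at each group mean. Fgf23 moves from 0.0193 FPKM or less in the 4 wild type hearts to 9.13 FPKM or more in the 4 knockout hearts. Fgfr1, Sost and, at levels near 0, Kl separate without overlap, and the other 6 genes overlap.

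The other 9 genes were read from a single limma fit over all 11390 genes, in which p-values were adjusted over all of them by the Benjamini-Hochberg method and a gene was called at an adjusted p under 0.05. In that fit 12.2% of all genes were called, 6.15% as raised and 6.01% as lowered in the knockout hearts. Of the 9 partners, 6 were expressed highly enough to be tested, and 2 of these rose, Fgfr1 and Sost, which is 33.3% of the tested partners. None of the 6 fell. Fgfr2, Fgfr3, Fam20c and Furin did not pass the test, and Fgfr4, Kl and Galnt3 lay below the filter. The median log2 difference of the 6 tested partners was 0.31, beside -0.009 for all tested genes, whose differences had an SD of 0.34. In the same 2 genes every knockout heart lay above every wild type heart, as in 10.3% of all tested genes, and counting either direction 20.7% of tested genes had groups that did not overlap. With 6 genes picked by hand, these counts describe these genes only.

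Among the receptors, Fgfr1 was the most abundant in every library. Fgfr1, at chr8:25513654-25575718, encodes the receptor that carries the renal action of FGF23 together with klotho. Wild type hearts held 12.2, 11.8, 12.1 and 12.5 FPKM of Fgfr1, against 17.3, 17.5, 15.1 and 18.0 FPKM in knockout hearts. All 4 knockout hearts lay above all 4 wild type hearts. The mean rose 1.40-fold, from 12.1 ± 0.273 to 17.0 ± 1.29 FPKM (SD, n = 4 each), a log2 difference of 0.45 ± 0.08 (SE) with a limma adjusted p of 0.00662. In the knockout hearts the mean of Fgfr1 was 1.13 times that of Fgf23, so that ligand and receptor transcripts stood at like levels per length.

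Fgfr3, at chr5:33721674-33737068, was the next receptor by level and overlapped between the groups. Its wild type values were 5.44, 4.91, 3.70 and 6.54 FPKM and its knockout values 5.86, 5.55, 4.66 and 6.84 FPKM. The log2 difference was 0.14 ± 0.15 (SE), with a limma adjusted p of 0.566. Fgfr2, at chr7:130162451-133123350, was low and variable in both groups. It held 0.650, 1.33, 1.19 and 1.52 FPKM in wild type hearts against 0.770, 2.0, 2.01 and 1.17 FPKM in knockout hearts, a log2 difference of 0.18 ± 0.20 (SE) with a limma adjusted p of 0.584.

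Fgfr4, the receptor for which a klotho-independent cardiac action of FGF23 has been described, was close to the floor of the table. The gene lies at chr13:55152640-55168759. Wild type hearts held 0.155, 0.0517, 0.0539 and 0.0217 FPKM, and knockout hearts 0.0165, 0.189, 0.209 and 0.116 FPKM. The groups overlapped, and Fgfr4 made up at most 0.951% of the summed FPKM of the 4 receptors in any library. Fgfr1 made up 60.7% to 71.0% of that sum in wild type hearts and 68.7% to 72.3% in knockout hearts. Fgfr3 held 21.7% to 31.8% and 21.2% to 26.2%. The sum itself lay between 17.0 and 20.6 FPKM in wild type hearts and between 22 and 26.1 FPKM in knockout hearts.

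Kl, at chr5:150952607-150993817, was barely detected in either group. The wild type libraries held 0.0270, 0.0186, 0.0277 and 0.0349 FPKM. In the knockout libraries Kl was listed at 0 in 3 and at 0.00331 FPKM in replicate 3. The groups did not overlap, but every value lay below the filter at a mean of 1 FPKM, and no test of Kl is reported. An mRNA level does not measure soluble klotho, which reaches the heart in the blood.

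Of the enzymes that act on the cleavage site, Furin was the most abundant and Galnt3 the least. Furin, at chr7:80388585-80405436, held 28.1, 22.6, 25.0 and 19.7 FPKM in wild type hearts and 21.6, 34.4, 37.9 and 44.2 FPKM in knockout hearts. Knockout replicates 2 to 4 lay above all wild type hearts, and knockout replicate 1 lay inside their range. The log2 difference of 0.48 ± 0.20 (SE) did not pass the test, with a limma adjusted p of 0.140. Without knockout replicate 1 the limma adjusted p was 0.0117, and over all alternatives tried it ran from 0.0117 to 1.

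Fam20c, at chr5:138754514-138810077, had nearly the same mean in both groups. Wild type hearts held 5.52, 6.54, 4.57 and 3.70 FPKM and knockout hearts 5.22, 6.27, 4.36 and 4.23 FPKM, with a limma adjusted p of 0.987. In wild type hearts the mean of Furin was 4.70 times that of Fam20c. Galnt3, at chr2:66082766-66124994, was listed at 0 in wild type replicates 1 to 3 and at 0.307 FPKM in wild type replicate 4. Knockout hearts held 0.0517, 0, 0 and 0.106 FPKM. The single highest library, wild type replicate 4, also carried a summed 1244 FPKM of 6 lung epithelial markers, against at most 0.481 FPKM in any other library. The part of that material in the Galnt3 value was not tested.

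Sost, at chr11:101962458-101967015, encodes sclerostin, a secreted inhibitor of Wnt signalling that osteocytes make along with FGF23. Wild type hearts held 1.90, 1.46, 1.52 and 1.44 FPKM and knockout hearts 2.70, 8.51, 4.43 and 6.52 FPKM. All 4 knockout hearts lay above all wild type hearts, and they spread more widely, 3.16-fold between the lowest and the highest. Sost rose 3.51-fold, from 1.58 ± 0.214 to 5.54 ± 2.53 FPKM (SD, n = 4 each), a log2 difference of 1.26 ± 0.25 (SE) with a limma adjusted p of 0.0134. Without both samples numbered 4 the limma adjusted p was 0.0614. The order of the knockout hearts from high to low was replicate 2, 4, 3 and 1 for Sost and for Fgf23 alike. Furin ran 4, 3, 2 and 1, and Fgfr2 and Fgfr4 shared the order 3, 2, 4 and 1. With 4 libraries and 9 partners an order can match by chance, and a link between Sost and Fgf23 was not tested.

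Other genes of bone cells were set beside Fgf23 and Sost, since both are known as osteocyte genes. The 7 markers Dmp1, Phex, Mepe, Bglap, Bglap2, Ibsp and Sp7 summed to 0.0205 to 0.0873 FPKM in wild type hearts and 0.0603 to 0.157 FPKM in knockout hearts. In the knockout hearts 3 of the 7 were listed at 0 in every library, and no single value exceeded 0.119 FPKM. The list was set as 10 genes, and these 7 are a part of it that leaves out Alpl, Runx2 and Sost. That part was not set in advance. All 10 summed to 9.86 to 26.9 FPKM in wild type hearts and 14.1 to 21.7 FPKM in knockout hearts. The 7 markers were near 0 in the hearts that held 9.13 FPKM or more of Fgf23. Which cells held the Fgf23 transcript was not tested. Alkaline phosphatase (Alpl), which many tissues express, was at 17.0 ± 7.01 FPKM in the wild type and 11.3 ± 1.12 FPKM in the knockout hearts (SD, n = 4 each), with a limma adjusted p of 0.275. Runx2 reached at most 0.478 FPKM.

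Ordered by mean level, the wild type hearts read Furin, Fgfr1, Fgfr3, Fam20c, Sost, Fgfr2, Galnt3, Fgfr4, Kl and Fgf23. The neighbours Fgfr3 and Fam20c overlapped between libraries, as did Sost and Fgfr2 and each neighbouring pair from Galnt3 to Fgf23. In the knockout hearts the order was Furin, Fgfr1, Fgf23, Fgfr3, Sost, Fam20c, Fgfr2, Fgfr4, Galnt3 and Kl. There Fgfr1 and Fgf23 overlapped, as did Fgfr3, Sost and Fam20c, and each neighbouring pair from Fgfr4 to Kl.

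The 250 bases upstream of the annotated start of Fgf23 and of Sost are shown because both genes were higher in the hearts of mice with the endothelial PHD2 and PHD3 knockout, and these enzymes act on HIF. They were taken from RefSeq on GRCm38.p6, at chr6:127072652-127072901 on the plus strand and chr11:101967016-101967265 on the minus strand. Capitals mark the letters ACGTG or GCGTG, the core to which HIF can bind, searched on both strands.
Fgf23 upstream: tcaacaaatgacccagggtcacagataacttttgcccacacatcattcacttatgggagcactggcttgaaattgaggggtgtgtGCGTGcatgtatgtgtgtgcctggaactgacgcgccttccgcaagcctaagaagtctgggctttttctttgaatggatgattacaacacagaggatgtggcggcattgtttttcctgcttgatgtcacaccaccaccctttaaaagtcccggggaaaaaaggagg
Sost upstream: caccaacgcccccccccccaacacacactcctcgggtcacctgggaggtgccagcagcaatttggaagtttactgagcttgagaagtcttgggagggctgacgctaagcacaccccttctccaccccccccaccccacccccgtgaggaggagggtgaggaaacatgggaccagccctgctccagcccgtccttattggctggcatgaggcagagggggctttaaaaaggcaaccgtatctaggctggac
Fgf23 holds 1 match, which starts 165 bases before the start of the gene, and Sost holds 0 in this window. Of 32851 RefSeq promoter windows of the same length, 38.6% hold at least 1 match. Of the 9 genes of the set with an entry, 5 hold a match in at least 1 window. These 9 genes have 11 windows, so the count by gene cannot be compared directly with the share of windows. A match of these letters is a description of the sequence and not evidence of binding.

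The other secreted FGF ligands were measured to place Fgf23 within its family. Of 17 ligands, 12 lay below the filter, 1 of the 5 tested rose and none fell, with a median log2 difference of 0.12 beside -0.009 for all tested genes. Counts in this and every later list stand beside 6.15% of all tested genes raised and 6.01% lowered. They describe the listed genes only. The ligand that rose was Fgf18, known for its part in cartilage, bone and lung growth. Fgf18 held 1.61, 1.77, 1.90 and 1.77 FPKM in wild type hearts and 3.07, 2.39, 3.04 and 3.05 FPKM in knockout hearts. The groups did not overlap, and Fgf18 rose 1.64-fold, by 0.49 ± 0.09 (SE) on the log2 scale with a limma adjusted p of 0.0102. Fgf1, the most abundant ligand, was at 37.4 ± 7.42 and 40.8 ± 8.35 FPKM (SD, n = 4 each; limma adjusted p 0.667). Fgf16, a ligand made by cardiomyocytes, was at 6.76 ± 1.83 and 5.08 ± 0.557 FPKM (SD, n = 4 each; limma adjusted p 0.204).

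Klotho's relatives were low in both groups and lay below the filter. Beta-klotho (Klb), the co-receptor for FGF19 and FGF21, reached at most 0.132 FPKM, and Lctl had means of 0.138 FPKM in wild type hearts and 0.275 FPKM in knockout hearts, with all knockout hearts above the wild type range. Fgfrl1, a receptor of the family without a kinase domain, was at 4.57 ± 0.462 and 4.44 ± 0.419 FPKM (SD, n = 4 each; limma adjusted p 0.846). Of this list 1 gene was tested and none was called.

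Heparan sulfate proteoglycans hold FGF ligands and receptors together at the cell surface. Of 11 genes, 9 were tested, 2 rose and none fell, with a median log2 difference of 0.15. Syndecan 4 (Sdc4) rose 1.69-fold, from 6.40, 6.51, 6.81 and 8.27 FPKM to 12, 12, 10.8 and 12.4 FPKM, by 0.68 ± 0.09 (SE) on the log2 scale with a limma adjusted p of 0.00237. Glypican 1 (Gpc1) rose 1.58-fold, from 36.1, 34.4, 33.4 and 30.3 FPKM to 50.5, 63.4, 52.4 and 45.6 FPKM, by 0.64 ± 0.10 (SE) with a limma adjusted p of 0.00592. In both, all knockout hearts lay above all wild type hearts.

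Downstream of the receptor, 16 genes of the signal relay were all tested, 2 rose and none fell, with a median log2 difference of 0.12. In either direction, 12.2% of all tested genes were called. Shc1, an adaptor that couples receptors to RAS, rose 1.63-fold, from 17.4, 17.5, 17.9 and 18.3 FPKM to 30.7, 30.3, 29.1 and 26.0 FPKM. The log2 difference was 0.67 ± 0.07 (SE), with a limma adjusted p of 0.00105. Ptpn11, the phosphatase SHP2, rose 1.99-fold, from 37.1, 30.9, 36.1 and 28.4 FPKM to 40.8, 62.4, 60.4 and 100.4 FPKM, with a limma adjusted p of 0.0341. The knockout hearts were all above the wild type hearts, and replicate 1 stood only just above them. The Ptpn11 call was lost on leaving out any single library except knockout replicates 1 and 4, with limma adjusted p-values of 0.0556, 0.0963, 0.0632 and 0.0861 without wild type replicates 1 to 4 and 0.0786 and 0.0673 without knockout replicates 2 and 3. Plcg1, the phospholipase that FGF23 engages through FGFR4 in cardiomyocytes, was at 20.9 ± 2.10 FPKM in the wild type and 16.4 ± 1.51 FPKM in the knockout hearts (SD, n = 4 each), without overlap, and did not pass the test (limma adjusted p 0.0549).

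Genes that FGF receptors and the ERK kinases are known to induce were examined next. Of 15 genes in the table, 12 were tested, 3 rose and none fell, with a median log2 difference of 0.17 beside -0.009 for all tested genes. Among all tested genes 6.15% rose and 6.01% fell. The 3 were the ETS transcription factors Etv5 and Etv4 and the feedback inhibitor Spry1. Etv5 rose 1.68-fold, from 3.52, 2.81, 3.31 and 3.01 FPKM to 5.14, 6.75, 4.89 and 4.49 FPKM, by 0.59 ± 0.12 (SE) on the log2 scale with a limma adjusted p of 0.0125. Its knockout hearts all lay above its wild type hearts.

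Etv4 rose 2.02-fold, from 0.596, 0.743, 0.905 and 1.41 FPKM to 2.07, 1.96, 1.91 and 1.41 FPKM, with a limma adjusted p of 0.0283. Its 2 replicates numbered 4 met at 1.41 FPKM. The wild type mean of Etv4, 0.913 FPKM, lay below the filter, so Etv4 entered the test only through its level in the knockout hearts (mean 1.84 FPKM), and its place among the 3 genes that rose rests on that; with no filter its limma adjusted p was 0.0476. The Etv4 call was lost without wild type replicate 1, 2 or 3 (limma adjusted p 0.0651, 0.0893 and 0.0641) and without knockout replicate 2 or 3 (0.0749 and 0.0687). Spry1 rose 1.43-fold, from 18.4, 16.4, 18.7 and 18.8 FPKM to 22.9, 25.3, 23.1 and 31.8 FPKM, without overlap and with a limma adjusted p of 0.0223. The Spry1 call was lost without wild type replicate 2 (0.0760) or 4 (0.0502) and without knockout replicate 2 (0.0561).

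The following genes of the same list were singled out after their values were seen. Dusp6, the ERK phosphatase most often read as a marker of FGF signalling, held 9.88, 9.36, 9.56 and 9.74 FPKM in wild type hearts and 13.9, 12, 9.94 and 11.8 FPKM in knockout hearts. Its groups did not overlap, and it did not pass the test (limma adjusted p 0.0909). Dusp4 and Spred3, further brakes on ERK, lay below the filter and did not overlap between groups, with values up to 0.618 against at least 1.03 FPKM for Dusp4 and up to 0.505 against at least 0.704 FPKM for Spred3. Il17rd, which encodes the FGF receptor inhibitor SEF, separated the other way, at 1.93, 1.59, 1.54 and 1.57 FPKM in wild type hearts and 1.14, 1.31, 1.23 and 1.5 FPKM in knockout hearts. Its limma adjusted p was 0.159. Spry2 and the immediate early gene Egr1 did not pass the test, with limma adjusted p-values of 0.496 and 0.456.

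**Figure D2:**
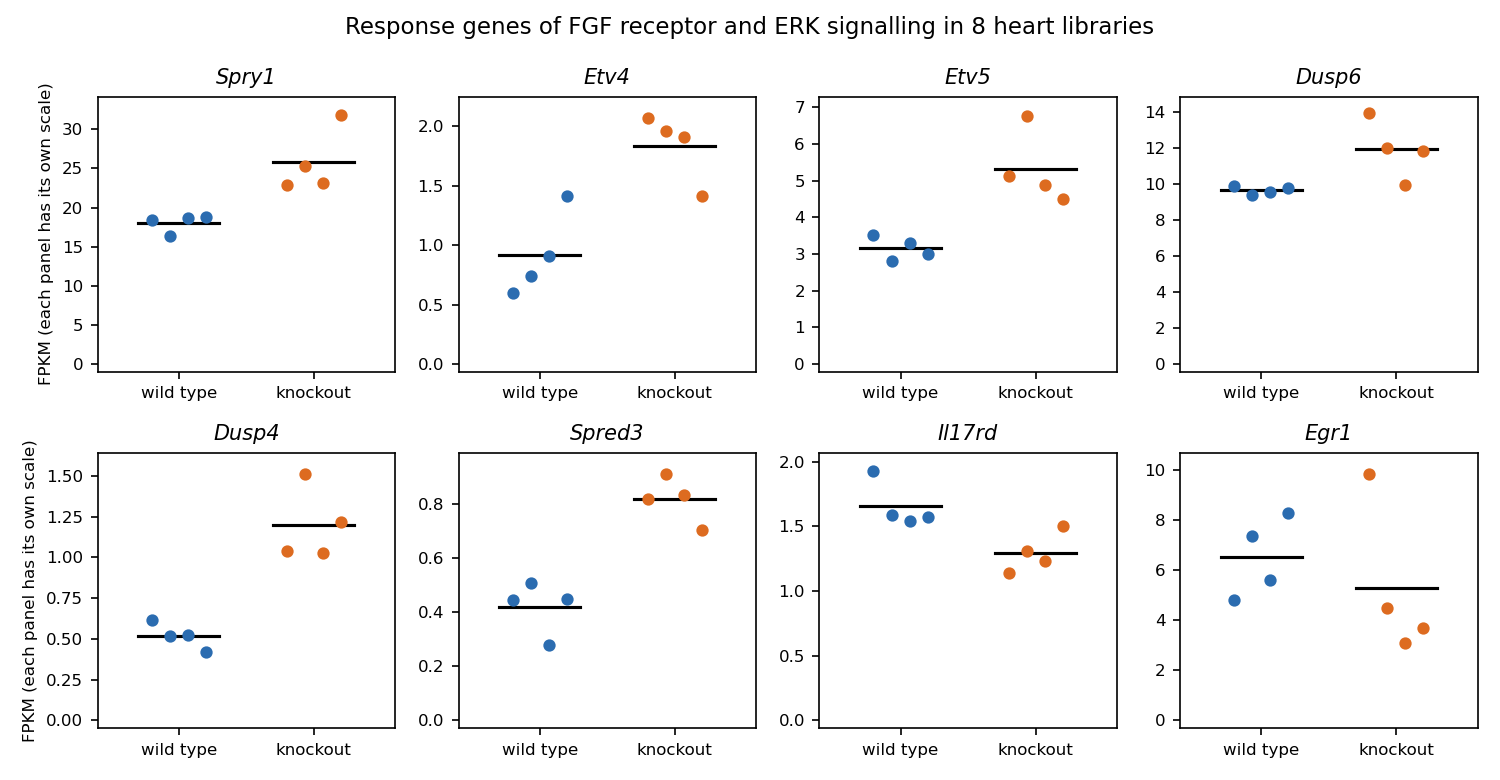
FPKM by library for 8 genes known to respond to FGF receptors and ERK, 1 panel per gene with its own linear axis from 0, with wild type in blue, knockout in orange and a line at each group mean. Spry1, Etv5, Dusp6, Dusp4 and Spred3 separate with the knockout hearts higher, Il17rd separates with them lower, Etv4 meets at 1.41 FPKM, and Egr1 overlaps.

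Calcineurin and NFAT genes, the route by which FGF23 acts through FGFR4 in cardiomyocytes, held no called gene: 11 of 11 were tested, none rose and none fell, with a median log2 difference of 0.06. Rcan2, a calcineurin regulator, was at 75.8 ± 9.55 and 105 ± 19.8 FPKM (SD, n = 4 each), with a limma adjusted p of 0.0571. That value became 0.0257 without knockout replicate 1 and 0.152 without wild type replicate 2. Rcan1, the usual readout of calcineurin activity, was at 40.6 ± 4.31 and 45.1 ± 20.6 FPKM (SD, n = 4 each), with a limma adjusted p of 0.904.

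Of 7 cardiac growth genes in the table, all were tested and none passed, although the median log2 difference was 0.59. Nppa, which encodes atrial natriuretic peptide, held 1246, 1323, 1786 and 1744 FPKM in wild type hearts and 2195, 8759, 4184 and 2631 FPKM in knockout hearts. The groups did not overlap, and the limma adjusted p was 0.0580, becoming 0.0288 without knockout replicate 1 and 0.0444 without knockout replicate 2. Nppb, the B-type natriuretic peptide, held 158, 158, 175 and 219 FPKM against 1357, 711, 369 and 119 FPKM, with knockout replicate 4 below every wild type heart (limma adjusted p 0.219). Ankrd1, a stress-responsive gene of the sarcomere, held 287, 227, 287 and 376 FPKM against 1127, 996, 658 and 221 FPKM, again with knockout replicate 4 lowest (limma adjusted p 0.148). Without knockout replicate 4, Nppb and Ankrd1 passed as raised, with limma adjusted p-values of 0.0269 and 0.00333. Myh7, the slow myosin heavy chain, was at 87.4 to 106 FPKM in the wild type and 74.2 to 88.6 FPKM in the knockout hearts (limma adjusted p 0.0689) and passed as lowered without knockout replicate 4 (0.0290). In that same library, knockout replicate 4, Actc1 stood at 5365 FPKM and Fgf23 at 17.8 FPKM. Over all 4 libraries Actc1, the cardiac alpha-actin, was at 9101 ± 636 and 8567 ± 2135 FPKM (SD, n = 4 each; limma adjusted p 0.675), and the fast myosin heavy chain Myh6 at 3284 ± 399 and 3512 ± 257 FPKM (limma adjusted p 0.509). Nppa, Nppb, Ankrd1 and Myh7 were singled out after their values were seen. Other alternatives moved them the other way. Leaving aside the 1.5-fold minimum, limma adjusted p-values reached 0.147 for Nppa, 0.380 for Nppb, 0.299 for Ankrd1 and 0.166 for Myh7.

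The relatives of the 3 processing enzymes were then read as lists. The list around Furin held 10 genes, the other proprotein convertases together with the convertase inhibitor Pcsk1n and the convertase chaperone Scg5. Of these 4 were tested, all of them convertases, 1 fell and none rose. The one that fell was Pcsk6 (PACE4), a convertase that shares the basic cleavage preference of furin. Pcsk6 held 23.8, 22.5, 26.2 and 22.8 FPKM in wild type hearts and 16.1, 14.3, 12.9 and 8.41 FPKM in knockout hearts, all below the wild type range. It was 1.84-fold lower, with a log2 difference of -0.87 ± 0.16 (SE) and a limma adjusted p of 0.0109. The convertases Pcsk5 and Pcsk7, with limma adjusted p-values of 0.678 and 0.444, did not pass.

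Of 18 genes for GalNAc transferases and the core 1 synthase, 9 were tested and none was called, with a median log2 difference of 0.04. Galnt1 had the highest level at 28.2 ± 2.01 and 33.7 ± 4.16 FPKM (SD, n = 4 each; limma adjusted p 0.128), so transcripts of other members of the family were present where Galnt3 was near 0. Galntl4 (Galnt18) was at 11.2 ± 0.760 and 12 ± 0.453 FPKM (SD, n = 4 each; limma adjusted p 0.442). Of 9 secretory pathway kinases, 6 were tested and none was called. Fam20b, a xylose kinase, was at 15.4 ± 1.83 and 19.2 ± 1.84 FPKM (SD, n = 4 each), without overlap, and did not pass the test (limma adjusted p 0.0810). Fam198b, the most abundant of these kinases, was at 19.8 ± 1.32 and 20.5 ± 7.90 FPKM (SD, n = 4 each; limma adjusted p 0.924).

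Genes that regulate FGF23 or handle phosphate made up a list of 22, of which 11 were tested, 2 rose and none fell, with a median log2 difference of 0.02. The 2 move phosphate across the cell membrane. Slc20a1 (PiT-1), a sodium-phosphate importer, rose 1.66-fold, from 8.55, 9.46, 7.76 and 10.6 FPKM to 19.9, 13.6, 13.8 and 13.1 FPKM, by 0.66 ± 0.14 (SE) on the log2 scale with a limma adjusted p of 0.0162. Xpr1, a phosphate exporter, rose 1.29-fold, from 5.39, 4.30, 4.69 and 4.36 FPKM to 5.69, 5.95, 6.23 and 6.33 FPKM, with a limma adjusted p of 0.0424. Both had knockout hearts above all wild type hearts. The Xpr1 call was lost without any single library other than wild type replicate 1 and knockout replicate 1, with limma adjusted p-values of 0.128, 0.0904 and 0.0993 without wild type replicates 2 to 4 and 0.0877, 0.0982 and 0.0660 without knockout replicates 2 to 4.

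Several genes of this list were singled out after their values were seen because they are known to control FGF23 in bone or to answer it in the kidney. Slc20a2 (PiT-2) had means of 31.6 and 31.0 FPKM (limma adjusted p 0.948). Cyp24a1, a vitamin D-degrading enzyme that FGF23 induces in the kidney, was listed at 0 in all 8 libraries. Cyp27b1 reached at most 0.194 FPKM. Erythropoietin (Epo), a known inducer of FGF23, was listed at 0 in all wild type hearts and reached at most 0.0452 FPKM in the knockout hearts.

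**Figure D3:**
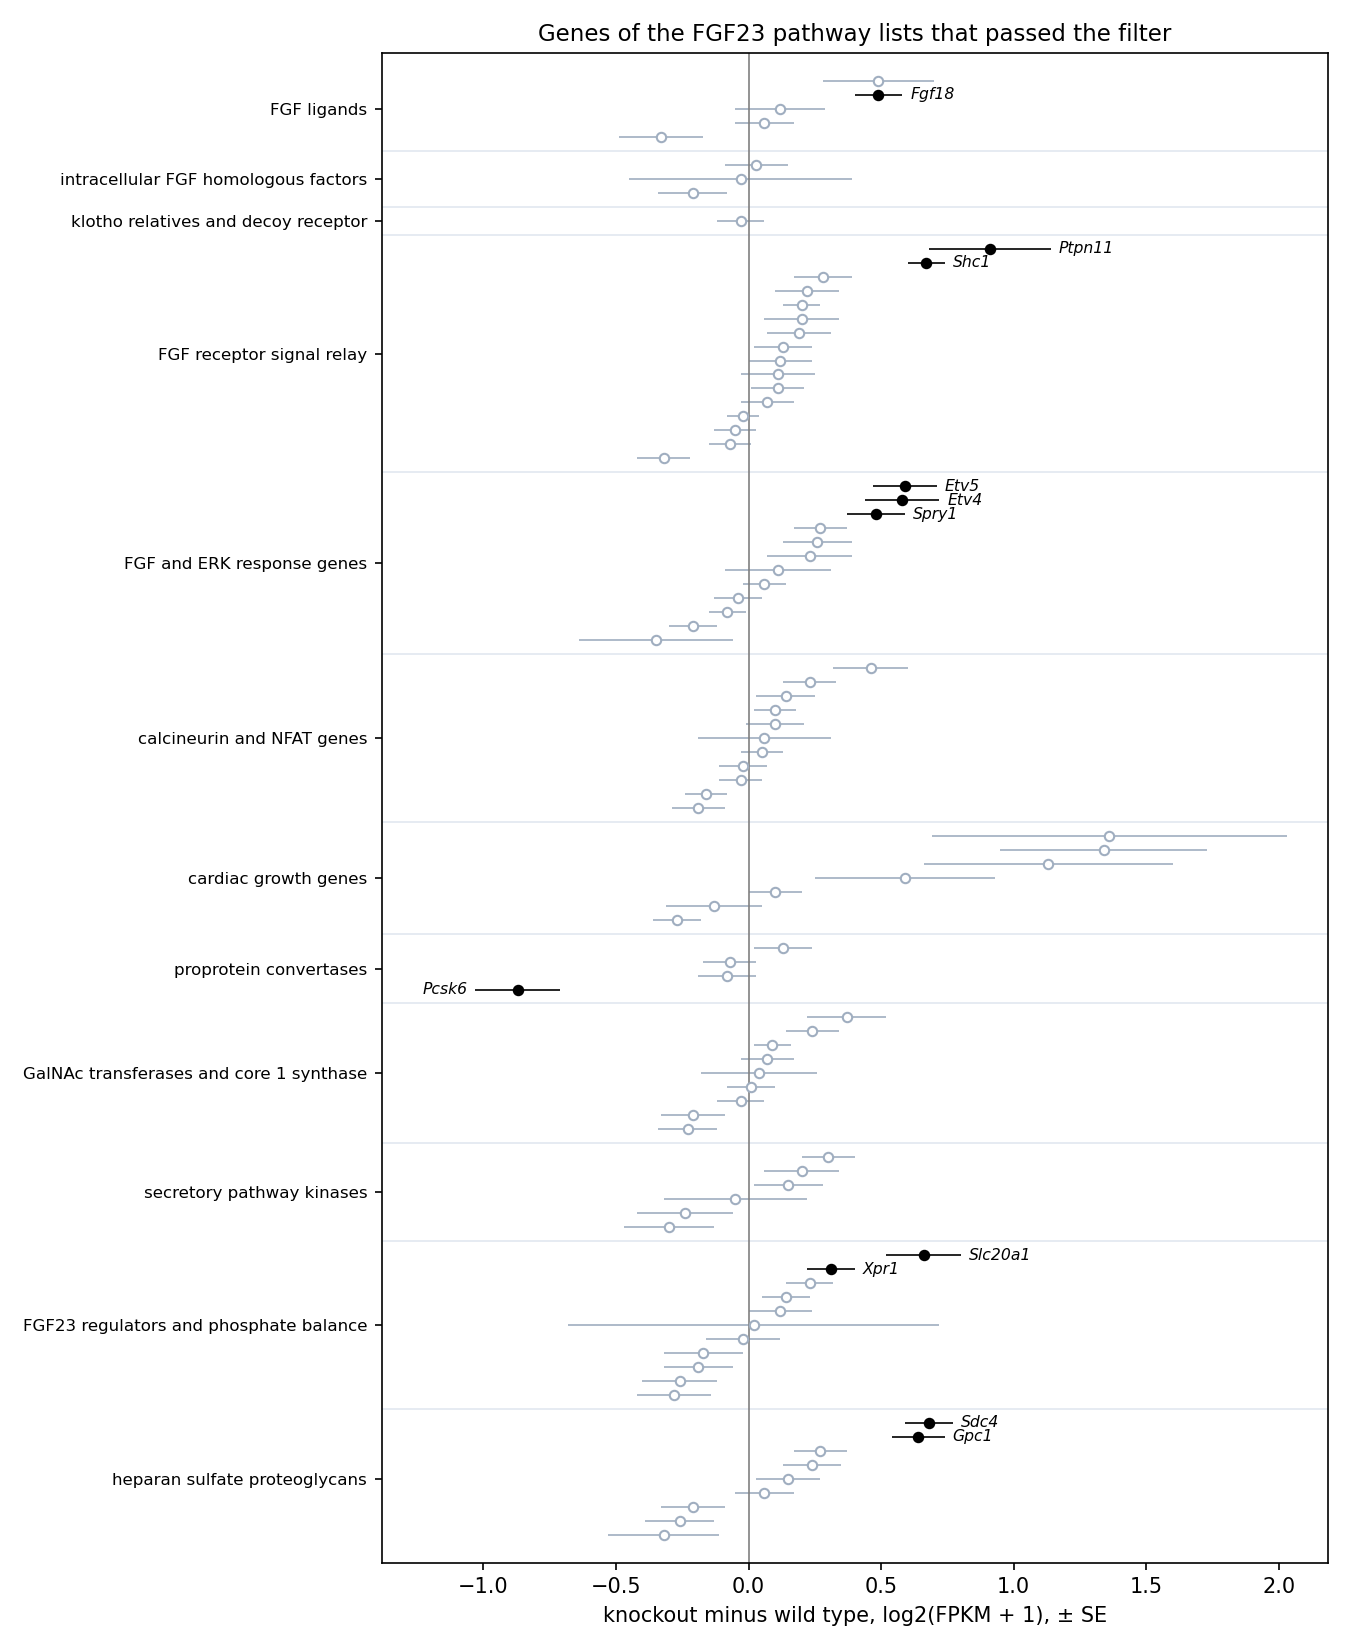
Log2 difference, knockout minus wild type, on the log2(FPKM + 1) scale with its SE for each tested gene of the pathway lists. Filled points passed the adjusted p threshold and are named, 10 to the right of 0 and Pcsk6 to the left of it. Of all 11390 tested genes 12.2% passed, 6.15% as raised and 6.01% as lowered. The named points are not read as a result about the lists.

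Genes around Fgf23 were measured because position was not used to choose the set. Within 250 kb of Fgf23 the annotation lists 21 genes, of which 8 were in the table and 4 were tested, and 2 of these rose. Among all tested genes 6.15% rose, and with 4 genes the count describes these genes only. Ccnd2, which encodes the cell cycle regulator cyclin D2, lies 43.8 kb away at chr6:127125162-127152193. It held 21.4, 16.5, 20.8 and 15.6 FPKM in wild type hearts and 34.5, 27.4, 30.7 and 25.4 FPKM in knockout hearts, all above the wild type range. Ccnd2 rose 1.59-fold, by 0.64 ± 0.13 (SE) on the log2 scale with a limma adjusted p of 0.0133.

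The nearest gene, 9630033F20Rik (named Tigar in the annotation), lies on the strand opposite to Fgf23 with a gap of 3.71 kb, at chr6:127085116-127109557. It rose 1.39-fold, from between 9.45 and 11.6 FPKM in the wild type hearts to between 12.3 and 17.6 FPKM in the knockout hearts, with a limma adjusted p of 0.0376. The 9630033F20Rik call was lost on leaving out any single library except knockout replicate 3, with limma adjusted p-values of 0.0511, 0.110, 0.0603 and 0.0957 without wild type replicates 1 to 4 and 0.0515, 0.0768 and 0.0531 without knockout replicates 1, 2 and 4. Rad51ap1 (2.66 ± 0.516 and 2.31 ± 0.847 FPKM; limma adjusted p 0.539) and D6Wsu163e (3.71 ± 0.613 and 3.29 ± 0.336 FPKM; limma adjusted p 0.481) did not pass (SD, n = 4 each). Fgf6, the FGF gene that lies 44.7 kb upstream of Fgf23, was low in both groups, at 0.0610, 0.0394, 0 and 0 FPKM in wild type and 0.521, 0.133, 0.118 and 0 FPKM in knockout hearts. The other 3 genes in the table reached at most 0.0813 FPKM.

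**Figure D4:**
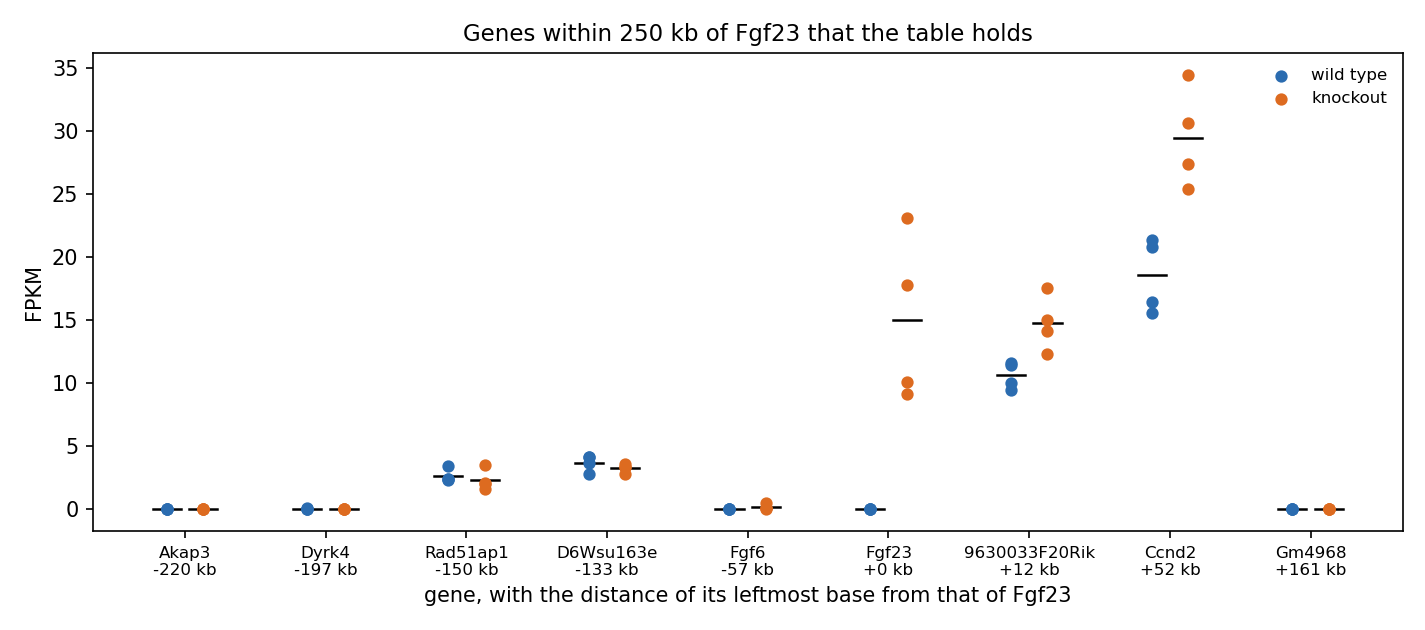
FPKM by library for the genes of the table within 250 kb of Fgf23, in genome order with the distance of each gene's leftmost base from that of Fgf23 in kb, with wild type in blue, knockout in orange and a line at each group mean. Fgf23, 9630033F20Rik and Ccnd2 separate between the groups without overlap, and Fgf6 reaches at most 0.521 FPKM.

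The 6 tested genes whose profile over the 8 libraries lay closest to that of Fgf23 were listed by the root mean square distance between standardised log2(FPKM + 1) profiles. They are a description with no test, because Fgf23 was chosen for the same pattern. Dio2 and Cysltr1 had wild type means of 0.650 and 0.911 FPKM, so both passed the filter only through the knockout hearts. They were Dio2 at a distance of 0.107, Frzb at 0.116, Pla2g16 at 0.172, Rab11a at 0.186, Slco2a1 at 0.192 and Cysltr1 at 0.194. Dio2, the deiodinase that activates thyroid hormone, stood at 0.650 ± 0.0536 FPKM in the wild type and 3.03 ± 0.632 FPKM in the knockout hearts (SD, n = 4 each). Frzb, a secreted Wnt antagonist, had means of 3.15 and 7.49 FPKM. Slco2a1, a prostaglandin transporter, had means of 3.16 and 11.1 FPKM. For each of the 6, every knockout heart lay above every wild type heart, which follows from choosing them for closeness to Fgf23.

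The targeted genes and the cell type markers bear on all of these values. Egln1, which encodes PHD2, was at 45.2 to 57.9 FPKM in the wild type and 52.6 to 63.5 FPKM in the knockout hearts, and Egln3, which encodes PHD3, was at 18.0 to 38.7 and 32.6 to 52.8 FPKM. Neither was lower in the knockout hearts (limma adjusted p 0.442 and 0.132), so whole-heart transcript levels do not check the genotype labels. Of 6 endothelial markers 2 fell, Tek and Tie1, with a median log2 difference of -0.22. In 3 of the 6 every knockout heart lay below every wild type heart, and in 1, Pecam1, above. Among all tested genes 20.7% had groups that did not overlap, counting either direction, and 10.3% had the knockout hearts above. Cdh5 held 93.5 to 97.0 FPKM in wild type and 72.1 to 92.9 FPKM in knockout hearts (limma adjusted p 0.102). Pecam1 was at 89.7 to 100.1 FPKM in wild type and 102 to 119 FPKM in knockout hearts (limma adjusted p 0.0665). Neither passed the test. Members thus differed in both directions, with more of them lower, and with 6 markers these counts describe the listed genes only. The 6 summed to 302 to 314 FPKM in the wild type and 262 to 302 FPKM in the knockout hearts. Of 6 cardiomyocyte markers 1 fell, Tnni3, with sums of 33631 to 37986 and 25991 to 35306 FPKM. Markers of bone marrow and blood cells summed to 565 to 2656 and 98.3 to 705 FPKM, and none of the 2 tested was called. Most of that sum was the red cell gene Hba-a1, at 547 to 2631 and 86.5 to 684 FPKM, while the marrow genes Elane and Ly6g were listed at 0 in every library and Mpo reached at most 0.0917 FPKM. Wild type replicate 4, with a summed 1244 FPKM of lung epithelial markers, is part of every wild type group above. The part of these cell type markers, the lung markers included, in the values above was not tested.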

How the data were processed

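Whole-heart RNA was purified on RNeasy columns and sequenced from TruSeq libraries, per the labels' protocols. Alignment used TopHat2 to mm10 and quantification used Cufflinks, per the submitters' processing notes. Versions, annotation and strand setting remain not given in the sources used here. The deposited table holds 1 value per gene and library, read as FPKM that the authors quantile normalised, because Cufflinks gives FPKM and the columns share nearly 1 set of values; 4644 genes are listed at 0 throughout. Depth and counting error therefore cannot be recovered, no count model was run, and reads shared with antisense, overlapping or closely similar genes cannot be told apart. No columns were identical, and 0 other columns of per-sample values were present.

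The 11390 of 22518 genes whose mean reached 1 FPKM were transformed to log2(FPKM + 1), which understates changes of low genes, and the 2 genotypes were compared with limma 3.58.1 in R 4.3.3 (lmFit, then eBayes with trend and robust options, no covariate). Adjustment was by Benjamini-Hochberg over all genes kept, with calls at an adjusted p under 0.05. Folds are ratios of mean FPKM. The functions were tested on simulated data before use. Members and lists were chosen with earlier results of these data known. Named genes were all members; in each list the called genes, up to 4 by smallest p, or otherwise the 2 with the highest mean; tested genes within 250 kb of Fgf23; and the 6 closest profiles. Names outside this rule were chosen after their values were seen. They are Fgf1, Fgf16, Klb, Plcg1, Dusp6, Dusp4, Spred3, Il17rd, Spry2, Egr1, Nppa, Nppb, Ankrd1, Myh7, Pcsk5, Pcsk7, Slc20a2, Cyp24a1, Cyp27b1, Epo and Fgf6. Cell type markers were set as lists. Those named singly also fall outside the rule: Alpl, Runx2, Pecam1, Cdh5, Tek, Tie1, Tnni3, Hba-a1, Elane, Ly6g and Mpo. Egln1 and Egln3 were given as the targeted genes.

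Coordinates are from GENCODE M21 on mm10, which held 21739 of the 22518 gene identifiers; promoter windows are from RefSeq on GRCm38.p6, without the exonic bases, and Fgfr1 had no entry. Synonyms were matched for Hras, Galnt16, Galnt17 and Galnt18; Spry3, Acta1, Galnt2, Galnt15, Klg and Hbb-bt were not analysed here. Alternatives changed the pseudocount, filter, scaling, variance model, sample weights, threshold or replicate block, or left out each library in turn or both libraries numbered 4.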

Additional observations from a re-analysis of the deposited data

Results flagged for a closer look

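In groups of 4 libraries, a value was singled out where its gap to the nearest other library took up more of the group's range than Dixon's 95% critical value allows. Chance singles out about 1 in 20 groups, and 9 values among 86 groups of the named genes met the rule. They are given as values. For Kl, Galnt3 and Actc1 the other 3 libraries share a single value, so any differing value meets the rule. The rate of 1 in 20 does not apply to such groups. Among the members, Kl of knockout replicate 3 was 0.00331 FPKM with the other 3 knockout hearts at 0, Galnt3 of wild type replicate 4 was 0.307 FPKM with the others at 0, and Sost of wild type replicate 1 was 1.90 FPKM with the others at 1.44 to 1.52 FPKM. Among the ligand, response and phosphate genes, Fgf18 of knockout replicate 2 was lowest at 2.39 FPKM (others 3.04 to 3.07), Spry1 of wild type replicate 2 was lowest at 16.4 FPKM (others 18.4 to 18.8), and Slc20a1 of knockout replicate 1 was highest at 19.9 FPKM (others 13.1 to 13.8). Actc1 of knockout replicate 4 was lowest at 5365 FPKM, with the other 3 at 9635 FPKM, a rank value that quantile normalisation gives to several libraries. Rad51ap1 of wild type replicate 4 was highest at 3.43 FPKM (others 2.37 to 2.42), and Rab11a of knockout replicate 4 was highest at 132 FPKM (others at 127).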

How the results depend on the processing

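Across 17 alternatives no named gene called in the main fit or in the alternative changed direction between them. Changes of direction in genes called in neither fit were not counted. Of 21 named called genes 16 kept the call on leaving out each of the 8 libraries. The 21 include the 6 closest profiles, which were named for a pattern like that of Fgf23. All 6 kept the call, so the count of 16 does not measure how stable the named genes are. Depth is unknown, so no limit of detection can be given. Where a count moved, the cause was not tested. Against 1385 genes called, a minimum change of 1.5-fold left 37, and leaving out 1 library gave from 574, without wild type replicate 2, up to 1819, without knockout replicate 1. That minimum left 0 of the 2 partners, 0 of the 11 pathway genes, and 0 ligands, relay, response, convertase, phosphate, proteoglycan and neighbour genes. A filter at 5 FPKM, which Sost does not reach, left 1 partner, 0 ligands and 1 response gene. Without a filter, 1 relay gene, 5 response genes, 1 phosphate gene and 1 neighbour were called. Array weights gave 20 pathway genes, with 1 ligand and 1 relay gene lowered, 1 calcineurin gene raised, 3 growth genes raised and 1 lowered, and 4 proteoglycans raised. Without trend and robust options 1 growth gene rose. Without both samples numbered 4, 1 partner, 1 relay gene, 1 phosphate gene, 1 neighbour, 4 proteoglycans and 2 growth genes were called raised and 1 growth gene lowered. Leaving out 1 library gave from 7 pathway genes, without wild type replicate 2, up to 14, without knockout replicate 1 or 4, 1 to 2 relay genes, 1 to 3 response genes raised and 0 to 1 lowered, 0 to 1 calcineurin genes, 0 to 2 growth genes raised and 0 to 1 lowered, 1 to 2 phosphate genes and 1 to 2 neighbours. With a pseudocount of 0.1 the Fgf23 difference was 7.03 on the log2 scale.

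No pairing by replicate number was seen: same-numbered deviations correlated at -0.226, 0.0093, 0.102 and -0.0966, and 1 of 4 numbers matched best with itself. With 4 samples per group this check cannot exclude a pairing. With the replicate block 613 genes were called, 5 pathway genes, 1 relay gene, 0 response genes, 0 phosphate genes and 1 neighbour, while Fgfr1 (limma adjusted p 0.0355) and Sost (0.0431) stayed called.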

Other observations

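The intracellular FGF homologous factors, which resemble FGFs in sequence but stay in the cell and bind sodium channels, were also measured. Of 4 genes 3 were tested and none was called, with a median log2 difference of -0.03. Fgf13 was at 29.7 ± 5.43 FPKM in the wild type and 25.4 ± 3.34 FPKM in the knockout hearts (SD, n = 4 each), with a limma adjusted p of 0.316. Fgf12 held 6.17, 4.49, 5.69 and 8.83 FPKM in wild type hearts and 2.35, 12.8, 9.25 and 4.03 FPKM in knockout hearts, with a limma adjusted p of 0.971. The knockout values lay on both sides of the wild type range.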
